A study of Mus musculus with 9 samples.

Results

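The NRF2 antioxidant response genes described here are 10 genes, taken by name from the deposited gene table. They are Nfe2l2, which encodes the transcription factor NRF2, Keap1, which encodes its inhibitor, and 8 genes that NRF2 is known to switch on, Nqo1, Hmox1, Gclc, Gclm, Txnrd1, Srxn1, Gsr and Osgin1. All 10 were among the 15552 genes of the table. Enough counts for a test were present for 9 of them, out of 11373 genes tested in all, and the gene that fell short was Nqo1.

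NRF2 is held in check by KEAP1, an adaptor that hands it to a CUL3 ubiquitin ligase for destruction. Oxidants and electrophiles modify KEAP1, and NRF2 then accumulates, pairs with a small MAF protein and binds antioxidant response elements beside genes for glutathione synthesis, thioredoxin recycling, NADPH supply and heme breakdown. This control acts largely on the NRF2 protein, which was not measured here.

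RNA was sequenced from MyC-CaP cells, a line derived from a prostate tumor of a mouse that carries a MYC transgene. All 9 libraries came from cells labelled as treated with recombinant NRG1 (rNRG1, 15 ng/mL), a ligand of the receptor HER3, after 6 to 12 h in medium without serum and calcium. RNA was taken at 0, 12 and 24 h of treatment, with 3 biological replicates per time, which the protocol describes as wells plated in triplicate, so that the p-values measure the spread between these libraries of 1 line. Untreated cells at the later times were not analysed here, and the time with NRG1 and the time in the starvation medium cannot be told apart.

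The libraries held 28467089 to 39239760 counts. Within a time point every pair of libraries differed by more than counting noise, with chi-square values per degree of freedom of 3.81 to 10.5. Replicate 3 at 12 h stood apart, with values of 10.3 and 10.5 where the remaining pair of 12 h libraries gave 4.38. Replicate 1 at 0 h did so less, with 7.68 and 6.82 where the remaining pair gave 4.22. The cells are labelled epithelial-like, and among prostate luminal markers Foxa1 averaged 285.7 CPM (counts scaled to a common library size) and Hoxb13 92.2 CPM, while Krt18 had 6 to 17 counts per library, Cdh1 0 to 4 and Epcam 0 to 3. Of the markers of other cell types, Ptprc of leukocytes, Col1a1 of fibroblasts and Pecam1 of vessels had at most 12 counts in any library. Higher levels were seen for Pdgfra and Dcn, which mark fibroblasts, at 16.5 and 0.261 CPM on average, and for Cd14 and Cd68, which mark myeloid cells, at 9.77 and 0.669 CPM.

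To place the 10 genes against each other, levels were compared as CPM per kilobase of exon. At 0 h, Gclc, the catalytic subunit of glutamate-cysteine ligase, averaged 27.4 CPM per kb ± 1.18 (SD, n = 3). It was followed by Gsr, which recycles oxidized glutathione, at 23.2 ± 0.939 and by Keap1 at 22 ± 0.397. Libraries of each of these 3 genes did not overlap those of the next gene in the order. Srxn1, which restores overoxidized peroxiredoxins, lay at 14.0 ± 0.338 CPM per kb and Gclm, the modifier subunit of glutamate-cysteine ligase, at 13.2 ± 0.331. Txnrd1, the cytosolic thioredoxin reductase, lay at 11.3 ± 0.762 and Nfe2l2 at 10.7 ± 0.389. Within each of these pairs the libraries overlapped. Hmox1, the inducible heme oxygenase, followed at 6.39 ± 0.243 CPM per kb, and Osgin1, an oxidative stress-induced growth inhibitor, at 0.755 ± 0.233. Nqo1, a quinone reductase often used as a readout of NRF2, lay lowest at 0.0694 ± 0.0857.

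**Figure D1:**
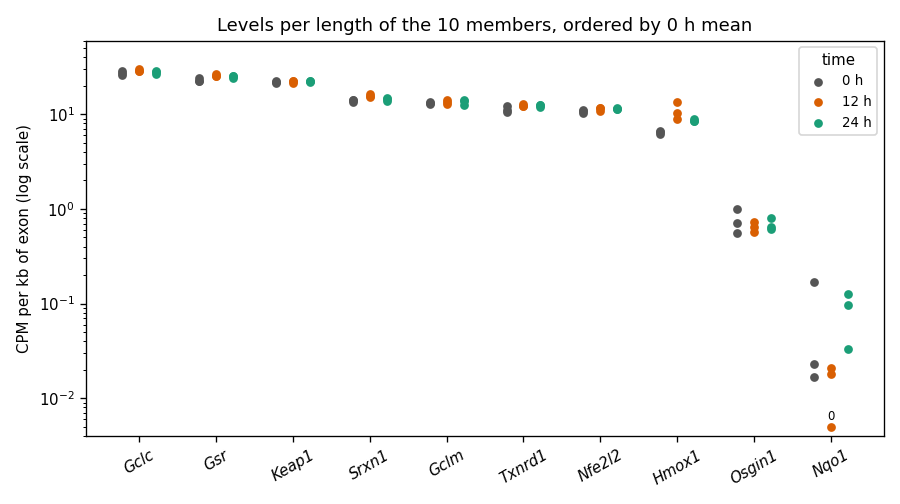
CPM per kilobase of exon (vertical axis, log scale) of the 10 genes, ordered by their mean at 0 h; each point is a library, colored by time, with 3 libraries per time and a value of 0 marked as such at the lower edge. Mean levels at 0 h run from 27.4 CPM per kb for Gclc to 0.0694 for Nqo1, and Hmox1 is the tested gene whose points spread most across times.

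Promoter sequences were available from RefSeq on GRCm38.p6 for 7 of the 10 genes, all but Hmox1, Gclc and Gsr. They were searched on both strands, from 250 bases before the start to 50 bases from the start on, for the core of the antioxidant response element, TGACNNNGC. The core was present in 4 of the 7 genes, or 57.1%, and in 14% of the 27025 genes of the RefSeq table. The stretches that hold it are given with the core in capitals, since it is part of the element that NRF2 binds when paired with a small MAF protein. Positions count the first transcribed base as 0.
Txnrd1, chr10:82859076-82859155, + strand: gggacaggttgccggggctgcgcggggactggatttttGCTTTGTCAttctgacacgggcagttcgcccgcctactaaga
Gclm, chr3:122245387-122245466, + strand: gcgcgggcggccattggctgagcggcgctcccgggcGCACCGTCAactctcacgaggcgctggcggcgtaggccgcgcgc
Nfe2l2, chr2:75704834-75704913, - strand: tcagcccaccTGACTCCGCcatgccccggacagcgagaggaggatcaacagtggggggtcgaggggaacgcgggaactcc
Srxn1, chr2:152105542-152105570, + strand: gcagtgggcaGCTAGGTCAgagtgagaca
In Txnrd1 the core lay 92 to 84 bases before the middle of 3 annotated starts, inside an intron of the longest transcript. In Gclm it lay 134 to 126 bases before the start. In Nfe2l2 it lay 240 to 232 bases before the start, in a stretch that is also an exon of the noncoding gene E030042O20Rik on the other strand. In Srxn1 the core lay 28 to 36 bases after the start, in its first exon. Only Nfe2l2 carried it on the strand of the gene, and the other 3 carried its reverse complement. The windows of Keap1, Nqo1 and Osgin1 held no such letters.

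The AP-1 site TGAGTCA, at which the FOS and JUN proteins bind and which can form part of an antioxidant response element, was searched for in the same way. It was present 2 times in the Srxn1 promoter, at 102 and 45 bases before the start, and it did not overlap the TGACNNNGC match there. The stretch is shown with both sites in capitals.
Srxn1, chr2:152105404-152105503, + strand: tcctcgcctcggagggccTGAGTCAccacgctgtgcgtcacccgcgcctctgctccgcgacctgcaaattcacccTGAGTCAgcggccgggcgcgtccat
Osgin1 held the site as its reverse complement at 97 bases before the start. The site occurred in 28.6% of the 7 genes and in 5.95% of the genes of the RefSeq table. A match is a stretch of letters, and binding was not measured here.

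Expression after 12 h was first compared with that at 0 h. Of the 9 tested genes, 4 rose, namely Hmox1, Gsr, Srxn1 and Txnrd1, and none fell, with a rise being an adjusted p of at most 0.05 in edgeR's quasi-likelihood test. Among all tested genes 25.5% passed in either direction and 13.6% were higher. With a change of at least 1.5-fold required as well, Hmox1 alone was called, against 2.29% of all genes. The median log2 fold change of the 9 genes was 0.086, and that of all tested genes was -0.0028. The fitted change was above 0 in 8 of the 9 genes and in 49.1% of all genes. The members were chosen with earlier results of these data known, so that these shares are a description.

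**Figure D2:**
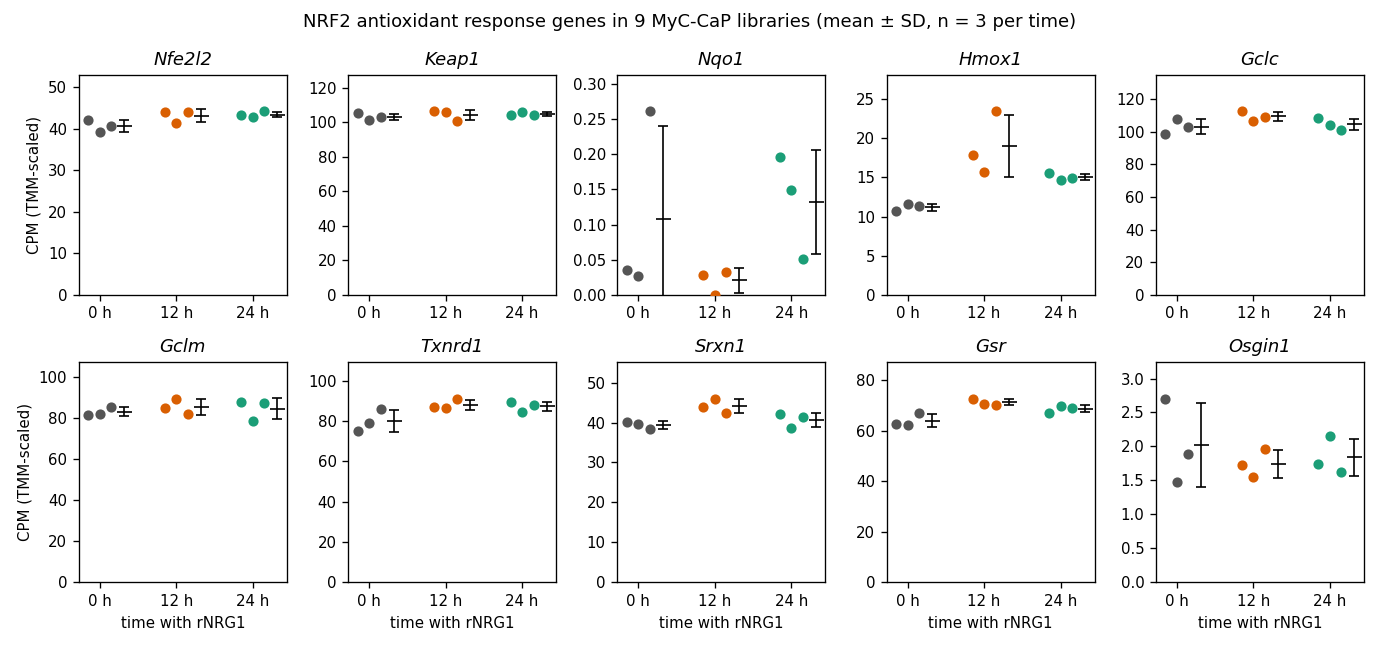
CPM of each of the 10 genes (vertical axes, each from 0) in each library at 0, 12 and 24 h; points are libraries in the order of their replicate numbers, and the bar beside each group is the mean ± SD of 3 libraries. Hmox1 is at 10.7 to 11.6 CPM at 0 h and above 14 CPM in every later library, whereas Nfe2l2, Keap1, Gclc and Gclm overlap between 0 and 12 h.

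The regulators came first. Nfe2l2, at chr2:75675513-75704641 on GRCm38, had 42.1, 39.1 and 40.7 CPM at 0 h, 43.9, 41.3 and 44.1 CPM at 12 h and 43.2, 42.8 and 44.1 CPM at 24 h. The libraries at 0 and 12 h overlapped, and those at 24 h lay just above those at 0 h. Its log2 fold change after 12 h was 0.086 (SE 0.0478, adjusted p = 0.206, edgeR), and the 24 h value was 0.096 (SE 0.0476, adjusted p = 0.191). The 95% interval of its fold change at 12 h ran from 0.99 to 1.14.

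Keap1, at chr9:21229730-21239361, averaged 103.3 CPM ± 1.87, 104.4 CPM ± 3.02 and 104.9 CPM ± 1.09 at 0, 12 and 24 h (SD, n = 3). Its libraries overlapped at all 3 times, and its fold change at 12 h had an interval of 0.958 to 1.07 (adjusted p = 0.799, edgeR). A share of 10.9% of its exonic bases lies opposite the noncoding gene Gm16754, and whether the counting used the strand is not given in the sources used here.

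Hmox1, at chr8:75093621-75100589, encodes the enzyme that opens the heme ring and releases iron, carbon monoxide and biliverdin. It had 10.7, 11.6 and 11.3 CPM at 0 h. At 12 h the 3 libraries had 17.9, 15.7 and 23.5 CPM, and at 24 h they had 15.5, 14.7 and 14.9 CPM. Every 12 h library lay above every 0 h library, replicate 3 at 12 h was the highest, and the 24 h libraries lay between the other groups without overlap. Of all tested genes, 19.9% had 12 h libraries wholly above those at 0 h. The 12 h log2 fold change was 0.76 (SE 0.111, adjusted p = 0.0001, edgeR), a 1.7-fold rise with a 95% interval of 1.44 to 1.99. Without replicate 3 at 12 h, the library that stood apart, it was 0.60 (adjusted p = 5.97e-05, edgeR) and the gene was still called at 1.5-fold. A test against a change of 1.5-fold itself (glmTreat in edgeR) did not call it.

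Single markers of other cell types, Cd14 and Krt15, were also higher at 12 h. The 4 leukocyte markers reported here together summed to 7.89 to 9.12 CPM in the 0 h libraries, to 11.1 to 12.9 CPM in those of 12 h and to 10.6 to 11.3 CPM in those of 24 h. Nearly all of it was Cd14, which rose at both times, while Cd68 had 11 to 31 counts per library, Ptprc, which marks all leukocytes, 0 to 8, and Cd3e 0 to 2. Ptprc averaged 0.095, 0.0109 and 0.0848 CPM at 0, 12 and 24 h, with too few counts to be tested. The basal markers summed to 169.4 to 219.2 CPM, 238.5 to 274.4 CPM and 150.7 to 179.5 CPM at 0, 12 and 24 h, nearly all of it Krt15, with Krt14 at 4 to 12 counts and Trp63 at 1 to 9. In RNA from whole cultures, more cells of a type and more RNA per cell cannot be told apart. The share of counts from mitochondrial genes also differed by time without overlap, at 1.414 to 1.498% at 0 h, 1.12 to 1.18% at 12 h and 1.21 to 1.36% at 24 h. The part of these markers and of this share in the changes of Hmox1 and of the other genes that rose at 12 h was not tested.

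Gsr and Txnrd1, which both draw on NADPH, also rose at 12 h, by smaller fitted changes than Hmox1. Gsr, at chr8:33652523-33698163, had 62.5, 62.2 and 66.8 CPM at 0 h, 72.5, 70.7 and 70.3 CPM at 12 h and 67.0, 69.7 and 69.1 CPM at 24 h. No 12 h library overlapped the 0 h libraries, and the 24 h libraries lay between them. Its log2 fold change at 12 h was 0.16 (SE 0.042, adjusted p = 0.0117, edgeR), or 1.11-fold. This call held without each of the 9 libraries in turn.

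Txnrd1, at chr10:82833951-82897712, had 75.2, 79.3 and 85.9 CPM at 0 h, 87.0, 86.3 and 90.9 CPM at 12 h and 89.3, 84.6 and 87.8 CPM at 24 h. The 0 h libraries were the most spread, and replicate 3 at 0 h came close to the lowest 12 h library. The log2 fold change at 12 h was 0.13 (SE 0.0475, adjusted p = 0.047, edgeR). This call stood at the edge of the threshold: it was lost on omission of 0 h replicate 1 or 2, of any 12 h replicate, or of 24 h replicate 1 or 3, with adjusted p between 0.0608 and 0.188 in edgeR.

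Srxn1, at chr2:152105516-152111376, had 40.1, 39.8 and 38.3 CPM at 0 h, 44.0, 45.9 and 42.5 CPM at 12 h and 42.0, 38.5 and 41.3 CPM at 24 h. The 12 h libraries lay above all others, and the 24 h libraries overlapped those at 0 h. Its log2 fold change at 12 h was 0.16 (SE 0.05, adjusted p = 0.0237, edgeR). The call was lost without replicate 3 at 0 h (adjusted p = 0.0716), replicate 1 at 12 h (adjusted p = 0.0525) or replicate 2 at 12 h (adjusted p = 0.105), all from edgeR. Of the 4 genes whose promoters held the core, Txnrd1 and Srxn1 thus rose at 12 h, where 13.6% of all tested genes were higher. Gclm and Nfe2l2 did not pass the test. Hmox1 and Gsr also rose but had no promoter sequence to search. A link between the core and a rise was not tested.

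The subunits of glutamate-cysteine ligase, which makes the first bond of glutathione, did not pass the test at either time. Gclc, at chr9:77754535-77794485, averaged 103.2 CPM ± 4.46, 109.5 CPM ± 2.85 and 104.6 CPM ± 3.55 at 0, 12 and 24 h. Its fold change at 12 h was 1.06 with an interval of 0.997 to 1.13 (adjusted p = 0.153, edgeR). Gclm, at chr3:122245557-122270732, averaged 83.0 CPM ± 2.08, 85.3 CPM ± 3.72 and 84.5 CPM ± 5.26 at the same times. Its fold change at 12 h was 1.03 with an interval of 0.957 to 1.1 (adjusted p = 0.605, edgeR). Libraries of both genes overlapped between all times. Gclm shares 4.71% of its exonic bases with a transcript on the opposite strand and 3.88% with a pseudogene, Gm6061, on its own strand.

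The 2 genes of lowest level gave the least precise values. Osgin1, at chr8:119434124-119446256, had 2.70, 1.47 and 1.89 CPM at 0 h, 1.73, 1.54 and 1.96 CPM at 12 h and 1.74, 2.15 and 1.63 CPM at 24 h. The spread at 0 h took in all later libraries, and the interval of its fold change at 12 h ran from 0.631 to 1.22 (adjusted p = 0.595, edgeR). Nqo1, at chr8:107388225-107403206, had 1, 1 and 9 counts at 0 h, 1, 0 and 1 counts at 12 h and 6, 5 and 2 counts at 24 h. In 6 of the 9 libraries it had no more than 3 counts, the number taken here as the limit of detection, which corresponds to 0.0765 to 0.105 CPM depending on the library. A difference in Nqo1 was not detectable at this depth.

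After 24 h, Hmox1 was the gene of the 9 that remained past the threshold against 0 h, higher, where 17.4% of all tested genes passed and 9.67% were higher. None of the 9 reached 1.5-fold with it, against 2.27% of all genes. The log2 fold change of Hmox1 was 0.43 (SE 0.113, adjusted p = 0.015, edgeR), or 1.34-fold with an interval of 1.14 to 1.59. Without replicate 1 at 0 h it was 0.40 with an adjusted p of 0.0549 in edgeR, and no gene of the 9 passed. The libraries of Hmox1, Gsr and Nfe2l2 at 24 h lay wholly above those at 0 h, which was so for 17.6% of all genes. Gsr was 1.07-fold higher (adjusted p = 0.103, edgeR) and Txnrd1 1.09-fold (adjusted p = 0.0909, edgeR). Without replicate 3 at 0 h both passed, at log2 fold changes of 0.14 (adjusted p = 0.0482) and 0.18 (adjusted p = 0.0176, edgeR). Srxn1 was at 1.03-fold (adjusted p = 0.607, edgeR). The median log2 fold change of the 9 genes was 0.044, against -0.0065 for all tested genes. Both comparisons use the same 0 h libraries.

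Between 12 and 24 h, none of the 9 genes passed in edgeR, where 5.03% of all tested genes did, or 0.29% with a change of 1.5-fold. Hmox1 and Srxn1 had the lowest unadjusted p of the 9 (0.00644 and 0.0293, edgeR), and both were lower at 24 h. Hmox1 differed by a log2 fold change of -0.34 (SE 0.107, adjusted p = 0.0838, edgeR), and DESeq2 gave -0.33 with an adjusted p of 0.0457. Srxn1 differed by -0.12 (SE 0.0498, adjusted p = 0.189, edgeR). The 24 h libraries of Hmox1, Srxn1 and Gsr lay wholly below those at 12 h, as in 13.6% of all genes. The drop of Hmox1 rested in part on replicate 3 at 12 h, without which the log2 fold change was -0.17 (adjusted p = 0.28, edgeR). Without replicate 2 at 12 h it was -0.45 (adjusted p = 0.016, edgeR). In a test of any difference among the 3 times, Hmox1 (adjusted p = 0.000301), Gsr (0.0275) and Srxn1 (0.0477) passed, 3 of 9 against 27.4% of all genes.

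**Figure D3:**
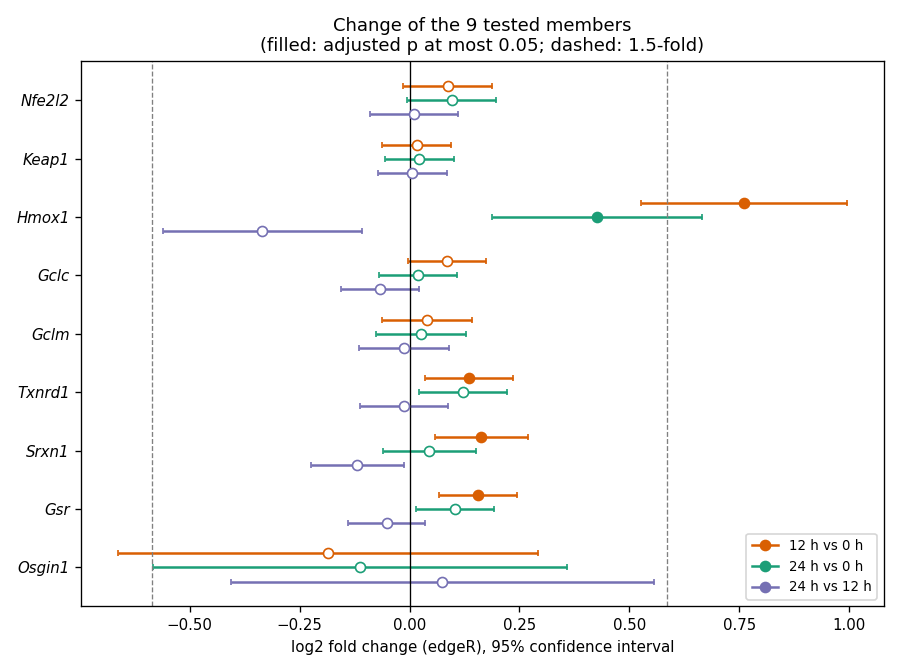
Log2 fold change from edgeR (horizontal axis) of the 9 tested genes in the 3 comparisons, with 95% confidence intervals; filled points passed an adjusted p of 0.05 and dashed lines mark 1.5-fold. Hmox1 is at 0.76, 0.43 and -0.34, and no other gene except Osgin1, with the widest intervals, has an interval that reaches 1.5-fold.

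Genes that act on or beside NRF2 were examined as a list of 12, of which 10 were tested. At 12 h Maff rose and none fell, so that 10% of the list was higher against 13.6% of all genes, and the median log2 fold change was 0.073. Maff, a small MAF protein of the kind that pairs with NRF2 and also with its competitor BACH1, had 130.4, 129.1 and 117.8 CPM at 0 h, 160.8, 145.3 and 173.2 CPM at 12 h and 127.8, 133.2 and 134.0 CPM at 24 h. Its 12 h libraries lay above all others. Against 0 h, its 12 h log2 fold change was 0.35 (SE 0.0548, adjusted p = 0.000213, edgeR), and the 24 h value was 0.067 (adjusted p = 0.458). At 24 h the gene that rose was Nfe2l1, which encodes NRF1, a relative of NRF2 known for control of proteasome genes. It too was 10% of the list, against 9.67% of all genes. It averaged 434.2 CPM ± 2.83 before treatment and 485.2 CPM ± 2.06 after 24 h, which gave a log2 fold change of 0.16 (SE 0.0377, adjusted p = 0.00712, edgeR). Among those that did not pass were Bach1, the repressor at antioxidant response elements, at 30.7 CPM ± 1.21 and 30.1 CPM ± 3.32 at 0 and 12 h, and Sqstm1, an autophagy receptor that binds KEAP1, at 530.0 CPM ± 22 and 546.7 CPM ± 54.8. Sqstm1 shares 17.3% of its exonic bases with Mrnip on the opposite strand.

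Other genes known as NRF2 targets formed a list of 26, of which 25 were in the table and 21 were tested. Like the other lists, it was drawn up with earlier results of these data known, so that its shares are a description. At 12 h 7 of the 21 genes rose, or 33.3% against 13.6% of all genes, and 3 fell, or 14.3% against 11.9%. None reached 1.5-fold with it. The median log2 fold change was 0.096. At 24 h 2 were higher and 3 lower, against 9.67% and 7.76% of all genes, with a median of 0.0012, and between 12 and 24 h none was higher and 5 were lower, or 23.8% against 3.06% of all genes, with a median of -0.095. On omission of 1 library, the number higher at 12 h lay between 5 (12 h replicate 2 left out) and 9 (12 h replicate 3 left out). The number lower at 24 h than at 12 h dropped to 3 with 12 h replicate 1 left out and to 2 with 24 h replicate 2 or 3 left out. Fth1 passed as higher at 24 h than at 12 h under DESeq2, with library totals, without a filter and with a replicate block. It also did so with only 2 times fitted and without 0 h replicate 1, and Slc7a11 did so without 12 h replicate 3. In these fits 5 to 7 genes were lower.

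Slc7a11, the cystine importer that supplies cysteine for glutathione, had 250.1, 310.3 and 252.6 CPM at 0 h, 335.6, 311.8 and 479.4 CPM at 12 h and 355.5, 408.1 and 389.6 CPM at 24 h. All later libraries lay above those at 0 h, by little in replicate 2 at 12 h. The 12 h log2 fold change was 0.47 (SE 0.117, adjusted p = 0.00717, edgeR), and the 24 h value was 0.50 (SE 0.117, adjusted p = 0.00643). DESeq2 gave 0.47 at 12 h with an adjusted p of 0.0514, and without replicate 3 at 12 h the change fell to its lowest value over the 9 omissions, 0.27. Ugdh, which makes UDP-glucuronic acid for conjugation, averaged 144.2 CPM ± 4.17, 189.0 CPM ± 8.28 and 166.4 CPM ± 3.03 at 0, 12 and 24 h. The 12 h log2 fold change was 0.39 (SE 0.0396, adjusted p = 4e-06, edgeR), and the 24 h value was 0.21 (adjusted p = 0.00148).

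Of the glutathione transferases, Gsta4 and Gstm1 fell. Gsta4, which conjugates the lipid aldehyde hydroxynonenal, had 18.6, 16.8 and 16.4 CPM at 0 h, 14.6, 13.0 and 12.8 CPM at 12 h and 11.9, 13.2 and 12.4 CPM at 24 h. No later library reached the 0 h libraries. The 12 h log2 fold change was -0.35 (SE 0.0797, adjusted p = 0.00383, edgeR), and the 24 h value was -0.46 (adjusted p = 0.000622). Gstm1 averaged 121.3 CPM ± 2.86 before treatment and 95.4 CPM ± 7.02 after 24 h, with a log2 fold change of -0.35 (SE 0.0477, adjusted p = 7e-05, edgeR). Gstp1, of another class, averaged 105.7 CPM ± 5.05 before treatment and 112.9 CPM ± 7.27 after 12 h, with a log2 fold change of 0.096 (adjusted p = 0.167, edgeR). Abcc4, an exporter of conjugates, was the remaining gene that fell, by 0.22 at 12 h and by 0.18 at 24 h on the log2 scale (adjusted p = 0.00314 and 0.0154, edgeR). Its 24 h call was lost on omission of 0 h replicate 2 or of 24 h replicate 1 or 2, with adjusted p of 0.0597 to 0.0661.

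Enzymes that make NADPH or work in the pentose phosphate pathway were singled out after their values were seen, so that their count is a description and says nothing of the pathway beyond these genes. Of the 6 in the list, 5 rose at 12 h, namely Me1, Taldo1, Pgd, G6pdx and Tkt, and Idh1, at a log2 fold change of 0.043 (adjusted p = 0.603, edgeR), did not pass, where 13.6% of all genes were higher. None of the 6 passed at 24 h against 0 h. G6pdx, the entry enzyme of the pathway, had 147.5, 149.3 and 141.7 CPM at 0 h, 165.0, 159.0 and 163.1 CPM at 12 h and 141.6, 139.9 and 143.2 CPM at 24 h. The 12 h libraries lay above the rest, and those at 24 h overlapped those at 0 h. After 12 h the log2 fold change was 0.15 (SE 0.0355, adjusted p = 0.00476, edgeR). Me1, the cytosolic malic enzyme, was at 99.1 CPM ± 3.29, 122.2 ± 5.86 and 102.4 ± 5.47 at the 3 times, with a 12 h log2 fold change of 0.30 (SE 0.0468, adjusted p = 0.000175, edgeR). Taldo1 lost its call without replicate 1 at 0 h (adjusted p = 0.0653) or replicate 2 at 12 h (adjusted p = 0.0593), and Tkt without the latter (adjusted p = 0.0579), all from edgeR. G6pdx shares 13.6% of its exonic bases with Ikbkg on the opposite strand.

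**Figure D4:**
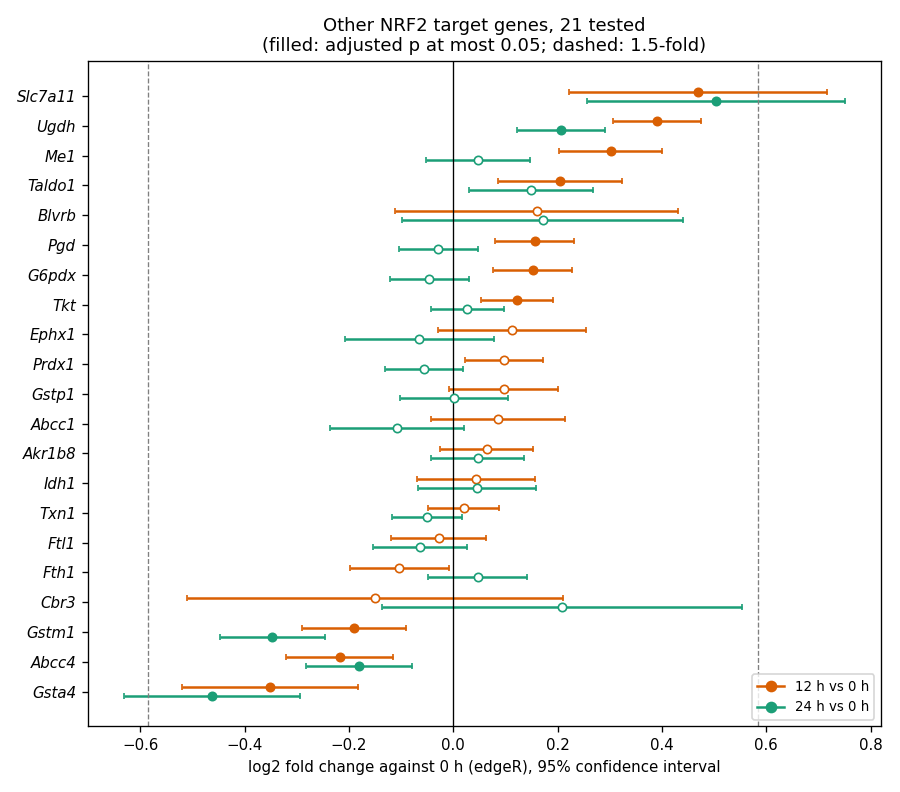
Log2 fold change against 0 h from edgeR (horizontal axis) of the 21 tested genes in the list of other NRF2 targets at 12 and 24 h, with 95% confidence intervals, ordered by the change at 12 h; filled points passed an adjusted p of 0.05 and dashed lines mark 1.5-fold. Slc7a11 and Ugdh are higher at both times, Gsta4, Gstm1 and Abcc4 are lower at both, and Me1, Pgd, G6pdx and Tkt are filled at 12 h and not at 24 h.

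The iron storage genes Fth1 and Ftl1, which handle the iron that heme breakdown sets free, did not pass against 0 h. Fth1 was at 1226 CPM ± 78.9, 1141 CPM ± 40.5 and 1267 CPM ± 44.3 at 0, 12 and 24 h. Its log2 fold change from 12 to 24 h was 0.15 (adjusted p = 0.0639, edgeR), and DESeq2 gave an adjusted p of 0.0289. Ftl1 was at 486.6 ± 24.2, 477.2 ± 23.4 and 465.3 ± 9.28, with 26.5% of its exonic bases shared with a gene on the opposite strand. Mgst1, Gsta3, Aldh3a1 and Gpx2 had too few counts to be tested, and Gsta2 was not analysed here.

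Remaining genes of glutathione, thioredoxin and reactive oxygen handling formed a list of 21, of which 20 were tested. At 12 h 2 were higher and 4 lower, or 10% and 20% against 13.6% and 11.9% of all genes, and the median log2 fold change was 0.018. At 24 h 1 was higher and 2 lower, or 5% and 10% against 9.67% and 7.76%, with a median of -0.055. Gpx3, the secreted glutathione peroxidase, had 700.9, 462.8 and 460.1 CPM at 0 h, 436.9, 330.4 and 354.7 CPM at 12 h and 435.0, 323.6 and 326.5 CPM at 24 h. All later libraries lay below those at 0 h, where replicate 1 was far above the others. After 12 h the log2 fold change was -0.53 (SE 0.141, adjusted p = 0.0104, edgeR), and the 24 h value was -0.58 (adjusted p = 0.00846). Without replicate 1 at 0 h the change at 12 h was -0.30 (adjusted p = 0.071, edgeR), and DESeq2 called Gpx3 at neither time (adjusted p = 0.0828 and 0.0722). At 24 h its call was also lost without replicate 2 (adjusted p = 0.0523) or replicate 3 (adjusted p = 0.0599, edgeR) at 24 h, and without replicate 1 at 0 h it was -0.35 with an adjusted p of 0.0496 in edgeR.

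Txnip, which binds and inhibits thioredoxin, fell by 0.21 on the log2 scale at 12 h (adjusted p = 0.0132, edgeR). Without replicate 1 at 0 h it was at -0.12 (adjusted p = 0.0501), and 19.4% of its exonic bases lie opposite Gm15441. Txnrd3, a thioredoxin reductase best known from testis, rose by 0.23 at 12 h (adjusted p = 0.0285, edgeR), a call lost on omission of 0 h replicate 1 or 3 or of 12 h replicate 1 or 2, with adjusted p of 0.0941 to 0.113. Gpx1, the cytosolic glutathione peroxidase, averaged 54.8 CPM ± 0.699 before treatment and 62.5 CPM ± 2.79 after 24 h, with a log2 fold change of 0.19 (SE 0.0447, adjusted p = 0.00727, edgeR). Sod1, the cytosolic superoxide dismutase, averaged 234.4 CPM ± 8.99 before treatment and 206.4 CPM ± 2.67 after 24 h, with a log2 fold change of -0.18 (SE 0.0382, adjusted p = 0.00294, edgeR).

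The genes whose log2 CPM followed Hmox1 and Nfe2l2 most closely over the 9 libraries were looked up among 8406 genes, as a description. For Hmox1 these were Tmbim6 (Pearson r = 0.982), Krt6a (r = 0.978) and Ywhag (r = 0.976), and 179 genes had an r over 0.9. For Nfe2l2 they were Cenpo (r = 0.978), Degs1 (r = 0.933) and Pea15a (r = 0.922), and 7 genes had an r over 0.9. The points share their libraries and their depth, and fall into 3 times. Nqo1 had too few counts for such a comparison.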

How the data were processed

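RNA-seq of 9 MyC-CaP libraries, 3 each at 0, 12 and 24 h with rNRG1, was analysed. Per the labels and the study's methods, paired-end 150 bp TruSeq mRNA reads were trimmed with Cutadapt and aligned to GRCm38.p6 with STAR, and featureCounts counted reads per gene. The deposited values are these raw counts, not normalized; the strand setting and the handling of reads with several matches are not given in the sources used here. The annotation in the box, GENCODE M21, held 99.2% of matched genes at the coordinates of the table.

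Here, counts were filtered with filterByExpr, which kept 11373 of 15552 genes, scaled by TMM, and fitted over all 9 libraries with glmQLFit in edgeR 4.0.16 (R 4.3.3). Times were compared with glmQLFTest, and p-values were adjusted by Benjamini-Hochberg over all genes tested. A gene rose or fell at an adjusted p of at most 0.05, and was called at 1.5-fold where the fold change reached that too. CPM are counts relative to the scaled library size, and log2 CPM used a prior count of 2. Levels per length divide CPM by the exon length in GENCODE M21. DESeq2 1.42.0, library totals without TMM, other filters, fits of only 2 times, a replicate block, glmTreat and omission of each library were alternatives. For the 3 further gene lists these were chosen after seeing the data. The test was checked on simulated data. At most 3 counts were taken as the limit of detection, and such limits cover counting error only.

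The members and lists were chosen with earlier results of these data known. Every one of the 10 members was named. From each list and comparison against 0 h, up to 3 genes with the largest absolute change were named among those past the threshold, with a mean of at least 5 CPM and libraries that did not overlap those at 0 h; others named beside them were chosen after their values were seen. Some marker genes of the cell type lists are not reported here. The likeness search took genes with a mean of at least 10 CPM.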

Additional observations from a re-analysis of the deposited data

Results flagged for a closer look

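In 8 genes of the 3 lists around NRF2, the change against 0 h differed between 12 and 24 h by edgeR's quasi-likelihood test of 24 h against 12 h, which is the difference of both changes and which 5.03% of all tested genes passed. None of the 10 NRF2 antioxidant response genes was among them. The lists were drawn up with earlier results of these data known, so that the shares given here are a description. Of 21 tested NRF2 targets, 5 were lower at 24 h than at 12 h, against 3.06% of all genes: G6pdx by a log2 fold change of -0.20 (adjusted p = 0.00422), Me1 by -0.25 (adjusted p = 0.00473), Pgd by -0.19 (adjusted p = 0.00724), Ugdh by -0.18 (adjusted p = 0.0128) and Prdx1, a peroxiredoxin that removes hydrogen peroxide, by -0.15 (adjusted p = 0.0194). The small MAF gene Maff differed by -0.28 (adjusted p = 0.00747), and Txnrd2, the mitochondrial thioredoxin reductase, by -0.19 (adjusted p = 0.0433). Gpx4, the peroxidase that reduces lipid peroxides, was higher at 24 h than at 12 h by 0.16 (adjusted p = 0.0194). The calls of G6pdx and Me1 held without each library in turn. Those of the other 6 were each lost without at least 1 library of the times compared. Maff lost its call without replicate 1 at 24 h (adjusted p = 0.0525), Pgd without replicate 2 or 3 at 24 h, Ugdh on omission of 12 h replicate 1 or of 24 h replicate 2 or 3, Gpx4 without any of the 24 h replicates, and Txnrd2 on omission of any library of either time, with library totals in place of TMM (adjusted p = 0.0633) and with the replicate number as a block (adjusted p = 0.0557). Prdx1 lost it on omission of 12 h replicate 1 or 2 or of any 24 h replicate.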

How the results depend on the processing

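The number of the 9 tested genes past the threshold at 12 h against 0 h was 4, and 2 to 4 when 1 library was left out, with the lowest number without replicate 1 or 2 at 12 h. At 24 h against 0 h it was 1, and 0 to 3 when 1 library was left out. Between 12 and 24 h it was 0, rising to 1, Hmox1, under DESeq2 and without a filter (adjusted p = 0.00394), and 0 to 1 when 1 library was left out. For any difference among the 3 times it was 3, falling to 1, Hmox1, with library totals in place of TMM, and 1 to 3 when 1 library was left out. The call of Hmox1 at 1.5-fold at 12 h held in all alternatives but glmTreat, which called 0. With the replicate number as a block, 4, 1 and 0 genes passed in the 3 comparisons and 2 in the test of any difference. The block changed no call of the 9 genes in the 3 comparisons; among the listed genes it ended the call of Txnrd2 and added those of Fth1, Gstm1 and Cat, all between 12 and 24 h. The numbers were not treated as a pairing. Deviations of same-numbered libraries from their group means, across 9416 genes, correlated with r of 0.178 to 0.287 for number 1, -0.199 to 0.199 for number 2 and -0.124 to 0.0872 for number 3, against -0.309 to 0.325 between different numbers, and what libraries of number 1 may share is not given in the labels.

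Of the values of single genes under the alternatives, 372 kept direction and side of the threshold, 13 lost and 5 gained a call, and 15 changed sign, none of them near the threshold. Txnrd1 lost its 12 h call also with library totals (0.12, adjusted p = 0.0834) and with only 2 times fitted (0.13, adjusted p = 0.0808). For 24 h against 12 h, library totals turned Gclm to 0.00065 and Txnrd1 to 0.00064. When 1 library was left out, changes ranged over both signs for Osgin1 at 12 h (-0.37 to 0.059), at 24 h (-0.30 to 0.13) and between them (-0.056 to 0.17), for Gclc at 24 h (-0.011 to 0.054), for Gclm at 24 h (-0.00086 to 0.081) and between 12 and 24 h (-0.048 to 0.036), and between 12 and 24 h for Nfe2l2 (-0.017 to 0.023), Keap1 (-0.023 to 0.020) and Txnrd1 (-0.026 to 0.0060). The cause was not tested. Depth limits Nqo1, which no alternative but the unfiltered fit could include (adjusted p = 0.245, 0.934 and 0.293).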
